A study of Mus musculus with 8 samples.

Results

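The 10 genes described here encode 8 subunits of the AP-1 transcription factor family (Fos, Fosb, Fosl1, Fosl2, Jun, Junb, Jund and Atf3) and the products of 2 further immediate early genes, Egr1 and Ier2. They were taken by symbol from each of 3 deposited expression tables of mouse hair follicle cells, and were 10 of the 21534 symbols that all 3 tables list. All 10 passed the filter on low values (a mean of 1 FPKM or more, where FPKM are fragment numbers per length of transcript and per size of library) in each table. In 9 of the 10 each table gave the gene a row of its own. The exception was Fosl1, which the K15-CrePGR hair bulb table joins with its neighbour Fibp in 1 locus (mm9 chromosome 19, 5447680 to 5471056), so that the value of that row cannot be ascribed to Fosl1.

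AP-1 is a dimer. Fos proteins bind DNA only when paired, typically with a Jun protein, while Jun proteins can also pair with each other, and Atf3 can pair with Jun proteins. Immediate early genes such as Fos, Egr1 and Ier2 are transcribed within minutes of growth factor signalling, stress or injury, without new protein synthesis, and their transcripts are short-lived. In skin, AP-1 is known for its part in keratinocyte proliferation, differentiation and wound repair, and such transcripts can also be induced while a tissue is dissociated.

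Bmpr1a encodes a receptor of bone morphogenetic proteins (BMPs), and the study deleted it in hair follicle stem cells (HFSCs) of the bulge or in transit-amplifying cells (TACs), the bulb cells that divide to make the hair shaft. HFSCs at postnatal day 68 came from mice carrying K15-CrePGR, a fusion of Cre recombinase and progesterone receptor under the keratin 15 promoter, with 1 control library labelled Het and 1 library labelled cKO, in which both Bmpr1a alleles were floxed. TACs at day 68 came from mice carrying Shh-CreER, a hormone-dependent Cre driven from the Shh gene, again with 1 Het and 1 cKO library. TACs at day 80 came from hair bulbs of the K15-CrePGR line, as WT samples 52 and 57 and KO samples 64 and 84, and all 8 libraries were of mixed strain. The labels give neither the inducing agent nor the time of induction, and they do not say whether 52, 57, 64 and 84 were separate animals, so the p-values cover just the spread among these 4 samples.

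Bmpr1a transcripts, whose level over the whole gene does not show whether the floxed part was removed, were present in every library, at 31.8 FPKM (Het) and 39.3 FPKM (cKO) in HFSCs and between 37.1 and 46.0 FPKM in the 6 TAC libraries. Targets of BMP signalling were lower in the deleted libraries, with 6 of 10 listed genes at least 2-fold lower in HFSCs and 7 of 10 in Shh-CreER TACs, against 4.6% and 2.77% of all genes tested. Id4 was the exception in HFSCs, at 41.9 FPKM in Het and 118 in cKO. In K15-CrePGR TACs limma called 0 of the 10, and both KO libraries were below both WT libraries in 6 and above in 1, against 27.5% and 26.8% of loci. The HFSC libraries held the bulge keratin Krt15 at 7834 and 3075 FPKM, and the control TAC libraries held the hair keratin Krt35 at between 2028 and 3092 FPKM. The HFSC libraries also held the epidermal keratin Krt10 at 4693 (Het) and 2026 FPKM (cKO). Among the K15-CrePGR libraries KO 64 stood apart in markers of other cells. Its immune markers summed to 1501 FPKM against between 43.1 and 266 in the other 3 libraries, and its fibroblast markers to 1976 FPKM against between 472 and 636. Libraries also differed in sex-linked transcripts, Xist and the Y-linked Ddx3y. The HFSC pair was opposite, with Xist at 68.9 (Het) and 3.98 FPKM (cKO) and Ddx3y at 0.255 and 23.2 FPKM, so deletion and sex cannot be told apart in that pair. Both Shh-CreER libraries held both transcripts (Xist at 68.2 and 102 FPKM, with Ddx3y at 14.8 FPKM in cKO and lower in Het), and among the K15-CrePGR libraries WT 52 stood apart. Depth was not stated. Relative depth read from the steps of low FPKM values ranged from 0.854 to 1.135 of the reference library of the same table.

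The stretches of 130 bases before the start site of Fos, Fosb, Atf3, Junb and Jun are shown because they are the promoters of AP-1 genes at the ends and in the middle of the range that separates stem cells from TACs below. They are RefSeq sequences of build GRCm38.p6, 5′ to 3′ on the strand of the gene, while the expression tables use mm9. Capitals mark TGACG on either strand, which is part of the full cyclic AMP response element TGACGTCA, and in Jun the AP-1-like element TGACATCA.
Fos, chr12:85473760-85473889, plus strand: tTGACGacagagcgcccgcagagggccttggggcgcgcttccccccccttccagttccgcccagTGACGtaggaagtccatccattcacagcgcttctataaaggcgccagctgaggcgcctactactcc
Fosb, chr7:19310046-19310175, minus strand: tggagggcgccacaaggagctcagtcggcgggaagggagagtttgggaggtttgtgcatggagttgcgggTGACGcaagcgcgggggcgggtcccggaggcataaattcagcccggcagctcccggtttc
Atf3, chr1:191183334-191183463, minus strand: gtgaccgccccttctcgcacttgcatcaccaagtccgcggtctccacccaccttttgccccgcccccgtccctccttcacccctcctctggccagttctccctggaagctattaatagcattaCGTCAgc
Junb, chr8:84978749-84978878, minus strand: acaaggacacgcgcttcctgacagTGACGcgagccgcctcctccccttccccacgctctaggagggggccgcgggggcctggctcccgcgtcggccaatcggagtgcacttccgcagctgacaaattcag
Jun, chr4:95052223-95052352, minus strand: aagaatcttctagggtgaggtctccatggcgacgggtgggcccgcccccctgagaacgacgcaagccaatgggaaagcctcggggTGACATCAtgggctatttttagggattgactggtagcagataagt

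Windows of 250 bases before the start were searched on both strands for 7 of the 10 genes that matched the table. TGACG stood in 4 of the 7 (Fos, Fosb, Atf3 and Junb), against 17.8% of 32851 windows of that length. In Fos it stood at 125 to 129 and at 62 to 66 bases before the start, in Fosb at 56 to 60, in Junb at 102 to 106, and in Atf3 on the opposite strand at 3 to 7. TGACATCA stood in 1 of the 7, Jun, at 38 to 45 bases before the start, against 2.93% of windows. The full element TGACGTCA and the classical AP-1 element TGACTCA stood in 0 of the 7, against 1.55% and 4.46% of windows. A match is a description of letters and not of binding.

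The first comparison was of stem cells with TACs. Transcripts of Fos, Fosb, Atf3 and Egr1 were several times more abundant in both HFSC libraries than in any of the 6 TAC libraries, whereas Jun and Fosl2 overlapped. This rests on scaling each library to its median. Scaled instead to housekeeping genes, the lowest HFSC value of Egr1 was 0.512 times the highest TAC value, and those of Fos, Fosb and Atf3 were between 1.34 and 1.45 times. The 3 tables were normalized separately, so levels across tables are a description with no test. They are given as FPKM, and for folds as FPKM divided by the library median over 12720 shared genes, which lay between 12.0 and 15.3 FPKM. On that scale both HFSC libraries were above every TAC library for 7 of the 9 genes with a row of their own, against 23.9% of all shared genes. The 7 were Fos, Fosb, Junb, Jund, Atf3, Egr1 and Ier2.

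**Figure D1:**
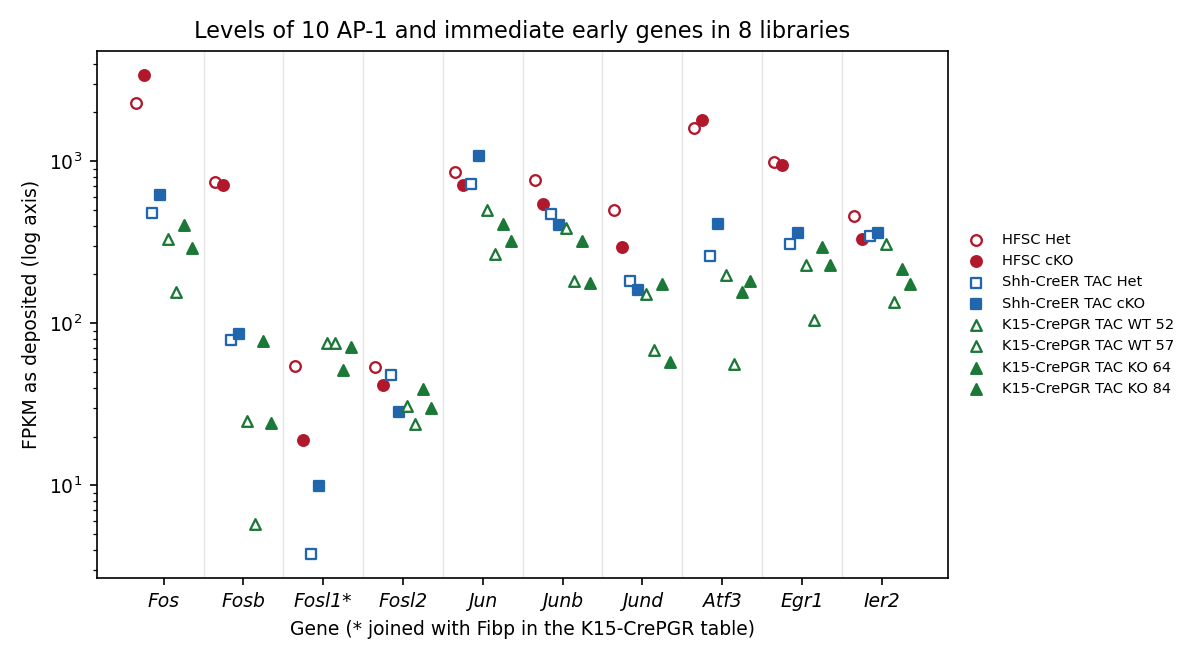
FPKM as deposited (log axis) of the 10 genes in the 8 libraries; circles are HFSCs, squares Shh-CreER TACs and triangles K15-CrePGR TACs, open for control and filled for deleted, and each point is 1 library. Fos, Fosb, Atf3 and Egr1 stood highest in the HFSC libraries, while Jun was highest in Shh-CreER TAC cKO at 1071 FPKM.

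Fos (mm9 chromosome 12, 86814840 to 86818223), the founding partner of Jun in AP-1, measured 2291 FPKM (Het) and 3421 FPKM (cKO) in HFSCs, then 481 and 619 FPKM in the Shh-CreER libraries. In the K15-CrePGR bulbs, taken in the order WT 52, WT 57, KO 64 and KO 84 here and below, it measured 331, 157, 405 and 291 FPKM. Both HFSC values lay above all 6 TAC values, and the lower of them was 4.41 times the highest TAC value after scaling. In the HFSC cKO library Fos ranked 17 from the top among the 12720 shared genes, and in WT 57 it ranked 663.

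Fosb (mm9 chromosome 7, 19888046 to 19895394), a Fos family member with the widest range here, measured 748 and 710 FPKM in HFSCs, 78.3 and 86.4 FPKM in the Shh-CreER pair, and 24.9, 5.77, 77.6 and 24.1 FPKM in K15-CrePGR TACs. The stem cell libraries were again above every TAC library, the lower by 9.64 times the highest TAC value after scaling. WT 57 was the lowest, where Fosb lay at the percentile 30.3 of shared genes, against 99.2 in HFSC Het.

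Fosl1, which encodes Fra-1, measured 54.2 and 18.9 FPKM in HFSCs and 3.77 and 9.84 FPKM in Shh-CreER TACs, so the HFSC values were the higher pair. Fosl2, which encodes Fra-2, measured 53.6 and 41.5 FPKM in HFSCs, 48.0 and 28.4 FPKM in the Shh-CreER pair, and between 24.0 and 39.4 FPKM in K15-CrePGR TACs. The HFSC and TAC ranges of Fosl2 overlapped after scaling, with a ratio of 0.98 between the lowest HFSC and the highest TAC value.

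Jun, the partner that can also pair with itself, measured 854 and 710 FPKM in HFSCs, 721 and 1071 FPKM in the Shh-CreER pair, and 500, 269, 411 and 322 FPKM in K15-CrePGR TACs. The Shh-CreER cKO library held the highest value, so stem cells and TACs did not separate. Junb, a Jun family member that can restrain Jun, measured 771 and 543 FPKM in HFSCs, 472 and 405 FPKM in the Shh-CreER pair, and 389, 182, 324 and 178 FPKM in K15-CrePGR TACs. Jund measured 499 and 297 FPKM in HFSCs, 183 and 160 FPKM in the Shh-CreER pair, and 153, 68.6, 175 and 57.9 FPKM in K15-CrePGR TACs. For both, the HFSC libraries were the highest, and the lowest HFSC value was 1.31 (Junb) and 1.85 (Jund) times the highest TAC value after scaling.

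Atf3, a stress-induced factor that pairs with Jun proteins, measured 1605 and 1786 FPKM in HFSCs, 258 and 410 FPKM in the Shh-CreER pair, and 199, 56.3, 156 and 182 FPKM in K15-CrePGR TACs. Egr1, a zinc finger factor induced through serum response elements, measured 985 and 947 FPKM in HFSCs, 310 and 360 FPKM in the Shh-CreER pair, and 230, 105, 294 and 230 FPKM in K15-CrePGR TACs. The lowest HFSC value was 4.67 (Atf3) and 3.08 (Egr1) times the highest TAC value after scaling, and the groups were apart in both. Ier2, a nuclear protein encoded by an immediate early gene, measured 458 and 330 FPKM in HFSCs, 347 and 360 FPKM in the Shh-CreER pair, and 310, 136, 216 and 176 FPKM in K15-CrePGR TACs. After scaling, its lowest HFSC value was 1.07 times the highest TAC value. HFSCs were at 27.1 and 38.2 times the library median, and TACs between 9.60 and 25.2 times. In FPKM as deposited, HFSC cKO was below both Shh-CreER libraries.

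Between the control libraries of day 68, HFSC Het exceeded Shh-CreER TAC Het at least 2-fold in 6 of 10 genes after median scaling, against 22.8% of shared genes, and at least 4-fold in 4 of 10, against 13.2%. The ratios were 16.6 for Fosl1, 11.1 for Fosb, 7.19 for Atf3, 5.51 for Fos, 3.67 for Egr1 and 3.16 for Jund. They were 1.89 for Junb, 1.53 for Ier2, 1.37 for Jun and 1.29 for Fosl2. The Fos, Fosb and Atf3 results kept their direction under each scaling tried, and those of Junb, Jund, Egr1 and Ier2 against all TAC libraries did not. Scaled to the median of 10 housekeeping genes, both HFSC libraries were above every TAC library for 3 of 9 genes (Fos, Fosb and Atf3), against 2.89% of shared genes, and that scaling moved the median of all genes between the 2 control libraries from -0.16 to -1.05 on the log2 scale. Under it, HFSC Het was below Shh-CreER TAC Het in Fosl2 (-0.53), Jun (-0.44) and Ier2 (-0.28). The housekeeping genes themselves differed widely between tables. Gapdh was listed at 162 FPKM in HFSC Het, 13.2 in Shh-CreER TAC Het and 3.91 in WT 52.

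The same count was made for the other lists, with 23.9% of all shared genes as the background. Of 41 other immediate early genes, 27 were above every TAC library in both HFSC libraries after median scaling, as were 6 of 14 heat shock genes, 7 of 32 kinases, docking factors and brakes of the MAP kinase and serum response pathway, 4 of 17 other bZIP partners and 10 of 21 genes known to be controlled through AP-1 sites. Shares as high were found in lists that are not immediate early genes, with 7 of 10 bulge markers, 6 of 7 epidermal markers and 6 of 10 housekeeping genes. With housekeeping scaling the count of other immediate early genes was 1 of 41, near the 2.89% of all shared genes. The summed heat shock genes, which can be induced by tissue handling, were 6142 and 6359 FPKM in HFSCs and between 2825 and 3656 FPKM in TACs. Much of that gap lay in Hspb1 (2404 and 2002 FPKM in HFSCs, between 28.1 and 87.9 in TACs), and without it, in a check added after the data were seen, the sums were 3738 and 4356 FPKM in HFSCs and between 2745 and 3568 in TACs. These sums add FPKM of separately normalized tables and are a description. Hspa8 alone was at 71.3 and 68.3 FPKM in the Shh-CreER pair. It was at 958 and 1315 FPKM in HFSCs and between 509 and 1042 in K15-CrePGR TACs. Single heat shock genes went both ways. The inducible Hspa1a was at 99.3 FPKM in HFSC Het and 327 in Shh-CreER TAC Het, but between 36.6 and 76.5 in K15-CrePGR TACs. Dnajb1 was at 224 FPKM in HFSC Het and 103 in Shh-CreER TAC Het. The summed epidermal markers were 7289 and 3070 FPKM in HFSCs against between 24.3 and 242 in TACs. The part of handling and of epidermal cells in the differences was not tested. In these bulk libraries fewer cells of a type and less RNA per cell cannot be told apart.

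The makeup of AP-1 transcripts differed too. A share within a library removes a factor common to all its genes, but not differences between tables in single genes, as seen in Gapdh above. Shares across tables are therefore also a description. Over the 7 AP-1 genes with a row of their own, Fos, Fosb and Fosl2 together made up 45.3% (Het) and 55.6% (cKO) of the summed FPKM in HFSCs. They made up 27.1% and 26.4% in the Shh-CreER pair, and 23.8%, 24.5%, 32.9% and 31.8% in WT 52, WT 57, KO 64 and KO 84. The row of Jun in the K15-CrePGR table spans 118285 bases, and its value covers that whole locus. Both HFSC shares were above all 6 TAC shares, and the smallest gap was 12.5 percentage points (12.0 without Jund). Jun, Junb and Jund together were 31.1% and 20.6% in HFSCs and between 51.4% and 68.1% in TACs. The ratio of Fos to Jun was 2.68 and 4.82 in HFSCs and below 1 in each TAC library, between 0.578 and 0.985. Atf3 was 23.5% and 23.8% of the sum in HFSCs and between 7.38% and 16.8% in TACs.

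**Figure D2:**
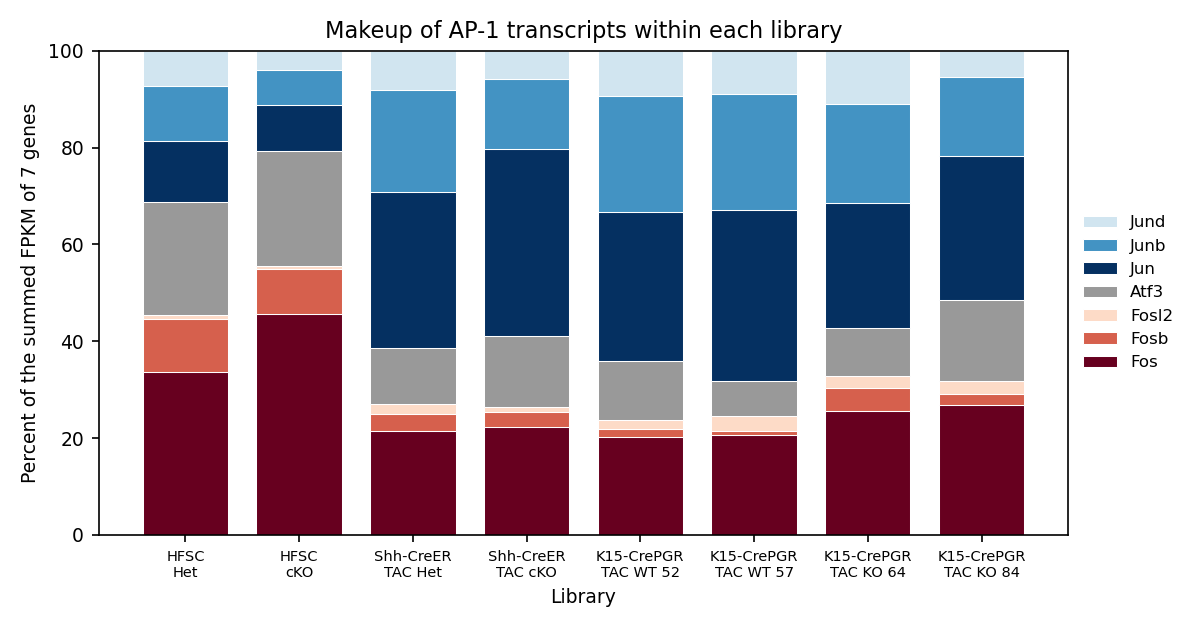
Percent of the summed FPKM of 7 AP-1 genes held by each gene, in 1 stacked bar per library; red shades are the Fos family, grey Atf3 and blue shades the Jun family. The Fos family held 45.3% and 55.6% of the sum in HFSCs and between 23.8% and 32.9% in TACs.

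Among the K15-CrePGR libraries the Fos family share was higher in KO 64 and KO 84 than in either WT library, and the Jun family share was lower in both. The ratio of Fos to Jun was 0.662 and 0.584 in WT and 0.985 and 0.906 in KO. In the HFSC pair the ratio was also higher in cKO (2.68 and 4.82), as was the Fos family share, and the Jun family share was lower. In the Shh-CreER pair the ratio (0.667 and 0.578) and the Fos family share (27.1% and 26.4%) were lower in cKO, and the Jun family share was lower too (61.4% and 58.9%). These shares rest on 2 libraries against 2 and on 1 against 1, and no test was run on them.

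The second comparison was of deleted with control cells within each table. No member passed the test in the K15-CrePGR table, and 1 member, Fosl1, differed at least 2-fold in each of the other tables, in opposite directions. Differences were taken after adding 1 FPKM and taking log2, so for genes of low level they are smaller than the ratio of the FPKM. In the K15-CrePGR table limma called 0 of 10 members at an adjusted p under 0.05 (Benjamini-Hochberg over 13565 loci), against 0.0663% of all loci (9 loci), and 0 of 10 had an unadjusted p under 0.05. The groups did not overlap for 1 of 10, the joined row of Fosl1 and Fibp, against 54.4% of all loci.

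**Figure D3:**
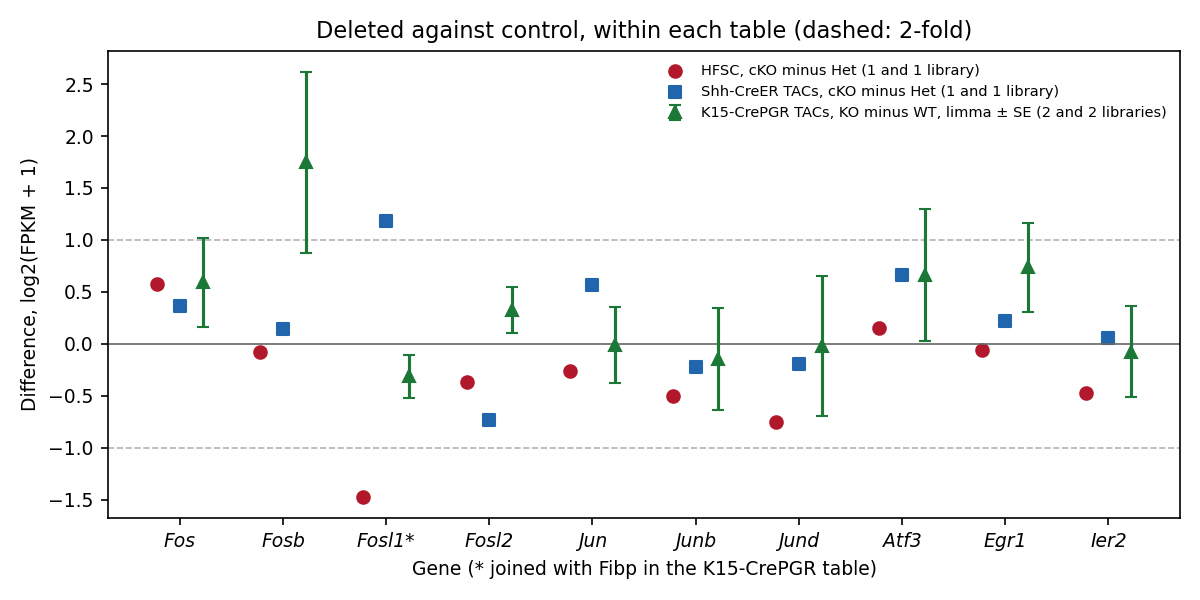
Difference between deleted and control libraries on the log2(FPKM + 1) scale for the 10 genes; circles (HFSC) and squares (Shh-CreER TACs) compare 1 library with 1, and triangles are limma estimates over 2 K15-CrePGR libraries against 2 with the standard error as bars. Fosl1 lay at -1.47 in HFSCs and 1.18 in Shh-CreER TACs, and the K15-CrePGR estimates lay between -0.31 and 1.75.

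In HFSCs 8 of 10 members were lower in the cKO library and 2 were higher, while 54.2% of 12205 genes were higher. The median member differed by -0.31, against 0.05 over all genes. Fosl1 was the 1 member at least 2-fold lower (-1.47, from 54.2 to 18.9 FPKM), against 4.6% of genes, and 0 of 10 were at least 2-fold higher, against 5.92%. Jund (-0.75), Junb (-0.51), Ier2 (-0.47), Fosl2 (-0.36) and Jun (-0.27) were lower by less. Fosb (-0.075) and Egr1 (-0.057) were nearly level, and Fos (0.58) and Atf3 (0.15) were higher. With 1 library a group these differences have no replicate check, and the 2 libraries differ in sex-linked transcripts as given above. Immune markers summed to 356 FPKM in Het and 136 in cKO, with 0 of 12 at 0 in either, and epidermal markers to 7289 and 3070 FPKM; their part was not tested.

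In Shh-CreER TACs 7 of 10 members were higher in the cKO library, as were 51.2% of 12296 genes, and the median member differed by 0.18, against 0.01 over all genes. Fosl1 was the 1 member at least 2-fold higher (1.18, from 3.77 to 9.84 FPKM), against 2.67% of genes, and 0 of 10 were at least 2-fold lower, against 2.77%. With a pseudocount of 5 FPKM the difference in Fosl1 was 0.76 and no member reached 2-fold. Atf3 (0.66), Jun (0.57) and Fos (0.36) were higher, and Egr1 (0.22), Fosb (0.14) and Ier2 (0.055) slightly so. Fosl2 (-0.74), Junb (-0.22) and Jund (-0.19) were lower. Skeletal muscle markers summed to 154 FPKM in Het and 31.4 in cKO, with 0 of 8 at 0 in either library, and their part was not tested.

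In the K15-CrePGR bulbs Fosb had the largest estimate, 15.3 ± 13.5 FPKM in WT and 50.8 ± 37.8 FPKM in KO (mean ± SD, n = 2 and 2), a difference of 1.75 (SE 0.87, limma adjusted p = 0.372). The lower KO library, at 24.1 FPKM, lay just under the higher WT library, at 24.9 FPKM. Egr1 measured 168 ± 88.6 and 262 ± 45.1 FPKM, a difference of 0.74 (SE 0.43, limma adjusted p = 0.424), and here too KO 84 and WT 52 were at the same level. Fos measured 244 ± 123 and 348 ± 80.6 FPKM, a difference of 0.59 (SE 0.43, limma adjusted p = 0.494).

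Atf3 differed by 0.66 (SE 0.63) and Fosl2 by 0.32 (SE 0.22), with limma adjusted p of 0.601 and 0.478. Jun differed by -0.010 (SE 0.36), Jund by -0.021 (SE 0.68), Ier2 by -0.075 (SE 0.44) and Junb by -0.15 (SE 0.50), with limma adjusted p between 0.898 and 0.991. The estimates of these 4 changed sign under quantile normalization. The joined row of Fosl1 and Fibp differed by -0.31 (SE 0.21, limma adjusted p = 0.472). On simulated data for this comparison, 13565 genes in all, the procedure recovered 0 of 67 differences of 2-fold, 18 of 67 of 4-fold and 36 of 66 of 8-fold. No simulated difference of 2-fold was thus detected. The spreads were shuffled over the genes, so these counts do not give the power for the members with their own spreads.

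The spread between libraries of 1 genotype ran the same way across the 9 genes. WT 52 exceeded WT 57 in 9 of 9, against 48.1% of all loci, and at least 2-fold in 7 of 9, against 2.1%. For 9 of 9 the gap between the 2 WT libraries was wider than the estimated difference between KO and WT, by little in Fosl2 (0.35 against 0.32). No share over all loci was taken for that count, so it is not read as particular to these genes. A gap between single libraries also varies more than a difference between means. Fosb was 4.31 times higher in WT 52 than in WT 57, Atf3 3.54 times, Ier2 2.28 times, Jund 2.23 times, Egr1 2.19 times, Junb 2.14 times and Fos 2.11 times. Jun (1.86) and Fosl2 (1.29) stayed under 2-fold.

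WT 57 was the lowest of the 4 libraries for 7 of 9 genes, against 23% of loci, the exceptions being Junb and Jund, which were lowest in KO 84. Fos, Fosb, Fosl2 and Egr1 shared 1 order, with KO 64 highest, then WT 52, then KO 84, then WT 57. KO 64 exceeded KO 84 in 8 of 9, against 44.3% of loci, and at least 2-fold in 2 of 9, Fosb (3.22 times) and Jund (3.03 times), against 7.73%. Atf3 was the exception at 0.859 times. In a check added after the data were seen, the WT counts were the same with median scaling and with quantile normalization, and under the latter KO 64 was the higher in 9 of 9.

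**Figure D4:**
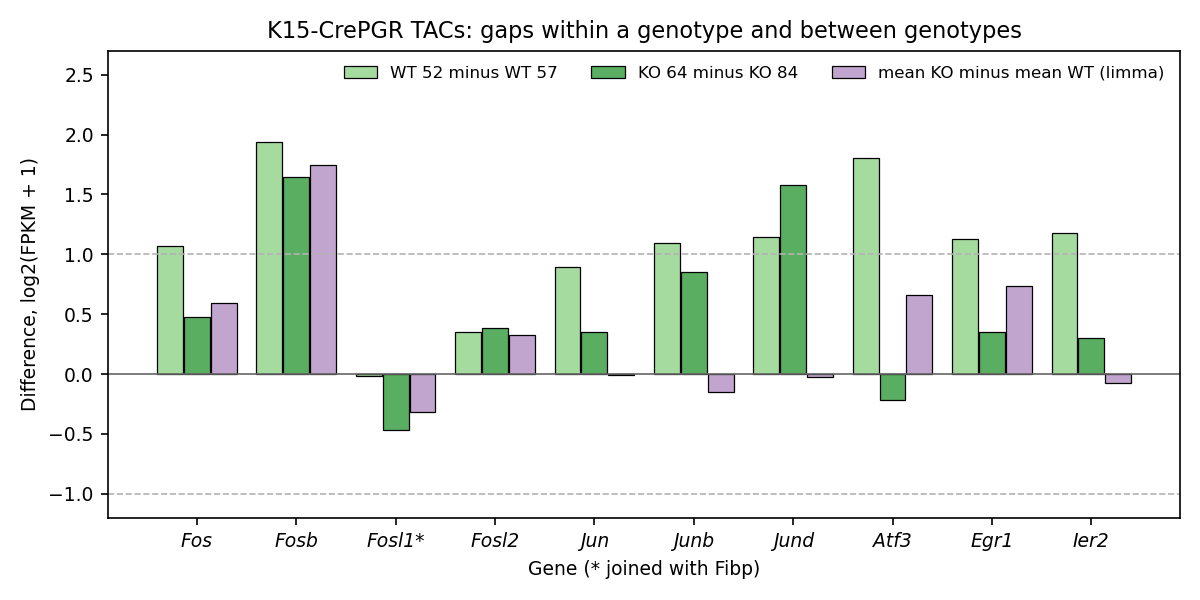
Differences on the log2(FPKM + 1) scale in the K15-CrePGR table for each gene, as bars for WT 52 minus WT 57, for KO 64 minus KO 84 and for the limma estimate of KO minus WT; dashed lines mark 2-fold. WT 52 exceeded WT 57 in 9 of 9 genes with a row of their own, against 48.1% of all loci.

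The gap between the WT libraries was seen in other immediate early genes and, to differing degrees, in several other lists. WT 52 was above WT 57 in 40 of 41 other immediate early genes and at least 2-fold above in 15, with a median difference of 0.87. The median was 1.11 for the 10 genes and -0.01 for all loci. It was 0.22 for the other bZIP partners (0 of 17 at least 2-fold), 0.25 for heat shock genes (0 of 14), 0.07 for the MAP kinase and serum response list (2 of 32) and -0.01 for housekeeping genes (0 of 10). It was 0.35 for genes controlled through AP-1 sites (15 of 19 higher in WT 52), 0.46 for BMP targets (10 of 10), 0.68 for epidermal markers (5 of 6), 0.73 for fibroblast markers (6 of 9) and 1.23 for immune markers (9 of 9). Skeletal muscle (0.42), smooth muscle (0.38) and endothelial markers (0.34) were between these. Matrix (0.10) and melanocyte markers (0.08) were nearly level, and bulge markers went the other way (-0.46, with 3 of 8 higher in WT 52).

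Some markers of other cells moved with the gap and others did not. Immune markers summed to 166 FPKM in WT 52 and 43.1 in WT 57, with 8 of 9 tested at least 2-fold higher in WT 52 and with 2 of 12 (WT 52) and 1 of 12 (WT 57) listed at 0, among them the Langerhans cell marker Cd207 in both. Fibroblast markers summed to 491 and 472 FPKM, nearly level, with none at 0. The largest part of that sum was Dcn, at 284 FPKM in WT 52 and 382 in WT 57. Of the 9 markers, 6 were higher in WT 52, 3 of them at least 2-fold. Melanocyte markers summed to 35.2 FPKM in WT 52 and 37.0 in WT 57, and endothelial markers to 9.13 and 9.52 FPKM. The largest endothelial part was Eng, at 5.83 and 8.07 FPKM. By count, 5 of 7 melanocyte and 5 of 6 endothelial markers tested were higher in WT 52. Summed immune markers were 1501 FPKM in KO 64 and 266 FPKM in KO 84, both above WT 52. Of the genes described, Fos, Fosb, Fosl2, Jund and Egr1 were highest in KO 64, and Jun, Junb, Atf3 and Ier2 in WT 52. WT 52 also differed from the other 3 K15-CrePGR libraries in sex-linked transcripts, with Xist at 3.26 FPKM against between 175 and 226, and Ddx3y at 26.4 FPKM against at most 0.753. The part of immune cells and of sex in the gap was not tested.

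**Figure D5:**
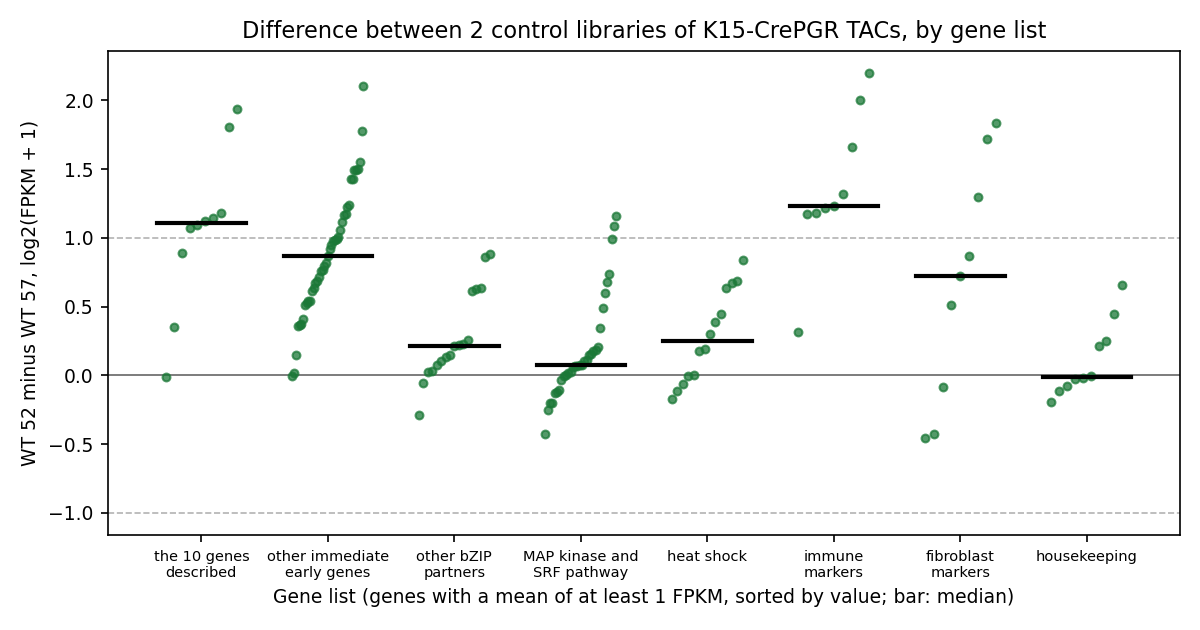
Difference between WT 52 and WT 57 on the log2(FPKM + 1) scale, with 1 point per gene sorted by value within each list, a bar at the median and dashed lines at 2-fold; the first list holds the 10 genes described. The medians were 1.11 for those genes, 0.87 for other immediate early genes, 1.23 for immune markers and -0.01 for housekeeping genes.

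The genes around AP-1 were read from the same comparisons. Of the other bZIP partners, 1 of 17 was at least 2-fold higher and 1 of 17 lower in HFSC cKO, near the shares of all genes (5.92% and 4.6%). Maff, a small Maf protein, measured 94.9 FPKM in Het and 40.5 in cKO, its relative Mafk 63.2 and 31.2 FPKM, and Jdp2, a repressor that pairs with Jun, 6.13 and 14.7 FPKM. In Shh-CreER TACs 0 of 17 were at least 2-fold higher and 1 of 17 lower, against 2.67% and 2.77% of genes. In K15-CrePGR TACs 0 of 17 passed the limma test, and both KO libraries lay above both WT libraries in 7 and below in 4, against 26.8% and 27.5% of loci.

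Of the other immediate early genes, 6 of 42 were at least 2-fold higher and 1 lower in HFSC cKO, against 5.92% and 4.6% of all genes. Sgk1, a serum-induced kinase, measured 109 FPKM in Het and 440.3 in cKO. Phlda1 was higher in cKO by 1.87 on the log2 scale, from 17.9 FPKM in Het, and the kinase Plk2 by 1.63, from 26.5 FPKM. In Shh-CreER TACs 2 of 40 were higher and 1 lower, against 2.67% and 2.77% of genes. Ctgf, a matricellular protein, measured 6.58 and 35.3 FPKM, Phlda1 8.24 and 19.6 FPKM, and Dusp2, a MAP kinase phosphatase, 13.8 and 4.13 FPKM. Phlda1 was thus higher in the deleted library of both single-pair tables.

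In K15-CrePGR TACs 0 of 41 other immediate early genes passed the limma test, with both KO libraries above both WT libraries in 14 and below in 2, against 26.8% and 27.5% of loci. Ctgf measured 4.64 and 3.39 FPKM in WT and 20.4 and 16.4 FPKM in KO (limma adjusted p = 0.0866). Dusp1, a MAP kinase phosphatase, measured 27.6 and 9.64 FPKM in WT 52 and WT 57 and 146 and 39.6 FPKM in KO 64 and KO 84 (limma adjusted p = 0.289). Klf2 measured 5.34 and 1.25 FPKM in WT and 36.3 and 6.32 FPKM in KO (limma adjusted p = 0.339). The WT and KO libraries were apart in each of the 3, and for Dusp1 and Klf2 the value of KO 64 was several times that of KO 84. Markers of other cells moved with them. In 9 of 9 immune, 8 of 9 fibroblast and 8 of 8 bulge markers tested, both KO libraries were above both WT libraries. The same held for 5 of 6 endothelial, 6 of 7 melanocyte and 4 of 5 smooth muscle markers. It held less often for epidermal (3 of 6), matrix (2 of 9, with 5 below) and skeletal muscle markers (0 of 4). The summed immune markers had the same order of libraries as Dusp1 and Klf2 (KO 64, KO 84, WT 52, WT 57). The part of all these markers in the differences was not tested.

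Upstream of these genes, 2 of 31 members of the MAP kinase and serum response list were at least 2-fold higher in HFSC cKO and 0 lower, against 5.92% and 4.6% of all genes, so the higher count was near the background. Both were phosphatases of MAP kinases, Dusp10 at 4.50 FPKM in Het and 20.5 in cKO, and Dusp6 at 63.0 and 194 FPKM. In Shh-CreER TACs 2 of 32 were higher and 0 lower, against 2.67% and 2.77% of genes, with Spry1, an inhibitor of receptor tyrosine kinase signalling, at 16.6 and 37.3 FPKM, while in HFSCs Spry1 was at 42.5 and 21.1 FPKM. In K15-CrePGR TACs 0 of 32 passed the limma test. Braf, a kinase that activates the MAP kinase cascade, measured 57.9 and 68.9 FPKM in WT and 22.7 and 19.5 FPKM in KO (limma adjusted p = 0.0866), and Dusp6 measured 44.1 and 21.7 FPKM in WT and 63.0 and 78.7 FPKM in KO (limma adjusted p = 0.253).

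Downstream, 5 of 22 genes known to be controlled through AP-1 sites were at least 2-fold higher and 5 lower in HFSC cKO, against 5.92% and 4.6% of all genes. Lor, a cornified envelope protein, measured 1119 FPKM in Het and 42.0 in cKO, and Ereg, a ligand of the EGF receptor, 26.3 and 5.10 FPKM. In Shh-CreER TACs 2 of 21 were higher (Fosl1 itself and the protease Plau, at 66.9 and 165 FPKM) and 2 lower, among them Ivl, another cornified envelope protein, at 30.9 and 9.56 FPKM, against 2.67% and 2.77% of genes. In K15-CrePGR TACs 0 of 19 passed the limma test. Both KO libraries were above both WT libraries in 11 and below in 1, against 26.8% and 27.5% of loci. The 1 below was the joined row of Fosl1 and Fibp, which cannot be ascribed to Fosl1. Beside these counts stand 9 of 9 immune, 8 of 9 fibroblast and 8 of 8 bulge markers and the others given above. The part of those markers was not tested. Krt6a, a keratin of the companion layer and of wounds, measured 14.2 and 10.1 FPKM in WT and 38.6 and 67.8 FPKM in KO (limma adjusted p = 0.125). Sprr1a measured 25.5 and 14.1 FPKM in WT and 57.1 and 29.1 FPKM in KO (limma adjusted p = 0.315).

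The genes whose pattern was most like that of Fos were sought among 7967 genes whose mean reached 5 FPKM in every table, by Pearson's r over the 8 libraries after centring each table on its own mean. They were Klf6 (r = 0.995), Lnpep (0.986), Dnajb1 (0.973), Egr2 (0.969) and Thap2 (0.969). Klf6 measured 168 and 261 FPKM in HFSCs, 81.4 and 98.9 FPKM in the Shh-CreER pair, and 44.8, 18.6, 60.0 and 37.9 FPKM in K15-CrePGR TACs, in the same order of libraries within each table as Fos. Among the members Egr1 (0.904), Fosb (0.872) and Atf3 (0.857) were nearest to Fos, at ranks 31, 63 and 77, and Jun (0.637), Ier2 (0.510), Jund (0.433), Junb (0.430) and Fosl2 (0.271) followed. Fosl1, with its joined row in the K15-CrePGR table, was opposed to Fos (-0.323, rank 5222). After centring, the values of the 2 libraries of a single-pair table mirror each other, so the 8 values are not independent. The genes named first were picked for the highest r among 7967, and no test was made on these values.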

How the data were processed

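RNA of 8 libraries was analysed from 3 deposited tables of FPKM, which the authors made with TopHat and Cufflinks on mouse build mm9, per the submitters' processing notes. No tool version is given in the sources used here. Each table was normalized separately. The K15-CrePGR table lists 45930 loci, of which 8904 carry no gene name, and named loci held between 21.0% and 21.6% of the summed FPKM. Depth is not stated, so relative depth was read from the steps of values under 0.3 FPKM.

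The 10 genes, the gene lists, the rules and the tests were chosen with earlier results of these data known. In the K15-CrePGR table, limma 3.58.1 was run on log2(FPKM + 1) of the 13565 named loci that averaged 1 FPKM or more (intensity trend, two-sided; R 4.3.3), calling adjusted p (Benjamini-Hochberg) under 0.05. The other tables have 1 library per group and no test; genes differing at least 2-fold were counted among 12205 (HFSC) and 12296 (Shh-CreER). Beside the 10 genes, the text names per list the 3 genes that differed most and averaged 5 FPKM or more; some genes that this rule takes are not reported here, and Fosl1 is counted as a member and as a target. Gapdh, Krt10, Krt15, Krt35, Cd207, Hspb1, Hspa1a, Xist and Ddx3y were named after their values were seen. Promoter sequences come from RefSeq (GRCm38.p6).

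Alternatives were pseudocounts of 0.1 and 5, other filters, median and quantile scaling, no trend, unnamed loci, and each library left out. The procedure was tested on simulated data of 13565 genes, with 1 unchanged gene called. Tables were computed with pandas 2.3.3 and numpy 2.4.6 in Python 3.11.15, and figures drawn with matplotlib 3.10.9.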

Additional observations from a re-analysis of the deposited data

Results flagged for a closer look

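For 5 of 10 members the difference between cKO and Het had opposite signs in HFSCs and Shh-CreER TACs, with 1 library a group. The difference between the tissues was not tested. No share of all genes with opposite signs was taken, so the count is not read as particular to the members. Of all genes, 54.2% in HFSCs and 51.2% in Shh-CreER TACs were higher in cKO. Fosb and Egr1 were nearly level in HFSCs. Fosl1 was 1.18 higher on the log2 scale in Shh-CreER TACs and -1.47 in HFSCs. Jun was at 0.57 and -0.27, Ier2 at 0.055 and -0.47, Egr1 at 0.22 and -0.057, and Fosb at 0.14 and -0.075. Of these, Fosl1 alone passed 2-fold in either table.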

How the results depend on the processing

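The count of 0 called members in K15-CrePGR TACs was the same under every alternative run. The count of called loci among all tested was 9, and became 21 with a pseudocount of 0.1, 5 with no filter, 15 at a minimum mean of 5 FPKM and 14 with unnamed loci; leaving out 1 library in turn gave 0 to 23, with 0 without WT 52 or WT 57, 15 without KO 64 and 23 without KO 84. Under quantile normalization the differences of Jun (0.26), Junb (0.094), Jund (0.17) and Ier2 (0.16) turned positive. Leaving out 1 library in turn, Jun ranged from -0.46 to 0.44, Junb from -0.69 to 0.40, Jund from -0.81 to 0.77, Ier2 from -0.67 to 0.52 and Atf3 from -0.24 to 1.57, with Atf3 negative without WT 57. Fos (0.056 to 1.13), Fosb (0.78 to 2.71), Egr1 (0.17 to 1.30) and Fosl2 (0.13 to 0.52) kept their sign. With a pseudocount of 5 FPKM, 0 of 10 members reached 2-fold in Shh-CreER TACs. Housekeeping scaling brought the count of members above every TAC library in both HFSC libraries from 7 to 3, and leaving out each TAC library in turn, added after the data were seen, gave 7 to 8. The cause of these changes was not tested. No paired analysis was possible because the groups share no replicate number in the K15-CrePGR table and hold 1 library each in the others. Unknown depth limits what can be said of low values.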
